A study of Mus musculus with 6 samples.

Results

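The insulin-like growth factor (IGF) system was described here from 9 genes of the 24061 gene symbols in the deposited count table, which were the ligands *Igf1* and *Igf2*, the receptors *Igf1r* and *Igf2r*, and the binding proteins *Igfbp3*, *Igfbp4*, *Igfbp5*, *Igfbp6* and *Igfbp7*. They are members of the IGF system by gene symbol and were taken up with earlier results of these data known, *Igf1* among them, and all 9 passed the filter on low counts. The libraries came from the inguinal mammary glands of FVB/N mice, from which CD45+CD11b+F4/80+ cells were sorted into a Lyve-1+ and a Lyve-1- fraction and sequenced as total RNA, with no treatment or genetic change in either fraction. Each fraction had 3 libraries, and each library was a pool of cells from 4 mice. Replicate 1 of each fraction was from mice aged 6 weeks, and replicates 2 and 3 were from mice aged 10 weeks. A pool is 1 sample, so the spread between mice within a pool was not measured, and age cannot be told apart from the pair of pools numbered 1.

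IGF1 is a secreted growth factor that acts on cells through the tyrosine kinase receptor encoded by *Igf1r*. IGF2 binds the same receptor, while the receptor encoded by *Igf2r* (the cation-independent mannose-6-phosphate receptor) carries IGF2 and lysosomal enzymes to the lysosome and is not a growth signal receptor. The binding proteins hold IGFs outside the cell and so limit or prolong their action, and proteases that cut them release the ligand. In the mammary gland, IGF1 made under the control of growth hormone supports the growth of ducts, and macrophages and stromal cells of many tissues transcribe *Igf1*.

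Library totals ran from 6478007 to 21406839 counts. *Lyve1*, the gene of the sort marker, had between 17 and 75 counts in the Lyve-1- libraries and between 4735 and 30871 in the Lyve-1+ libraries. All 8 macrophage marker genes examined were counted in every library, with a summed level between 3545 and 6587 CPM (counts scaled by TMM to a common library size). *Itgam*, the gene of CD11b, and *Emr1*, the older symbol of the F4/80 gene, were among them. Olfactory receptor genes, which macrophages are not known to use, reached 0.382 CPM per kb of exon in the third Lyve-1- replicate, 0.0761 in the first Lyve-1+ replicate, and between 0.00291 and 0.0564 in the other libraries. Every gene of the 9 was above that level in its own library. The closest were *Igf2* and *Igfbp3* in Lyve-1- replicate 3, at 1.54 and 2.44 times the olfactory receptor level. Markers of other cells were present as well, and their values are given beside the genes that moved with them.

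Of the 9 genes, *Igf1* alone passed the test between the fractions. *Igf1*, the ligand, was 5.56-fold higher in Lyve-1+ cells. *Igfbp4*, which encodes a binding protein that mostly inhibits IGF action, was 3.04-fold higher and *Igfbp6*, whose product prefers IGF2, was 2.08-fold higher with the libraries of the fractions apart, but neither passed the test. The test was edgeR's quasi-likelihood test over 13348 genes. A call needed a Benjamini-Hochberg adjusted p below 0.01 together with a log2 fold change of more than 1 but less than 10 in size. *Lyve1* itself missed the limit on p, with a log2 fold change of 7.93 (adjusted p = 0.0254 in edgeR). A gene without a call can therefore still differ between the fractions. By that rule 1 of the 9 genes, *Igf1*, was called, which was already known when the genes were taken up, against 0.112% of all genes tested in either direction and 0.105% higher in Lyve-1+ cells. The study had chosen its own list of differing genes on these libraries, and as *Igf1* and *Igfbp4* are on it, that list is not independent evidence of their direction. The libraries of the fractions did not overlap for 3 of the 9 genes, all higher in Lyve-1+ cells, against 7.82% of all genes tested in that direction. An estimate above 0 was found for 5 of the 9 genes and for 49.4% of all genes tested. The median log2 fold change was 0.17 over the 9 genes and -0.01 over all genes tested.

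**Figure D1:**
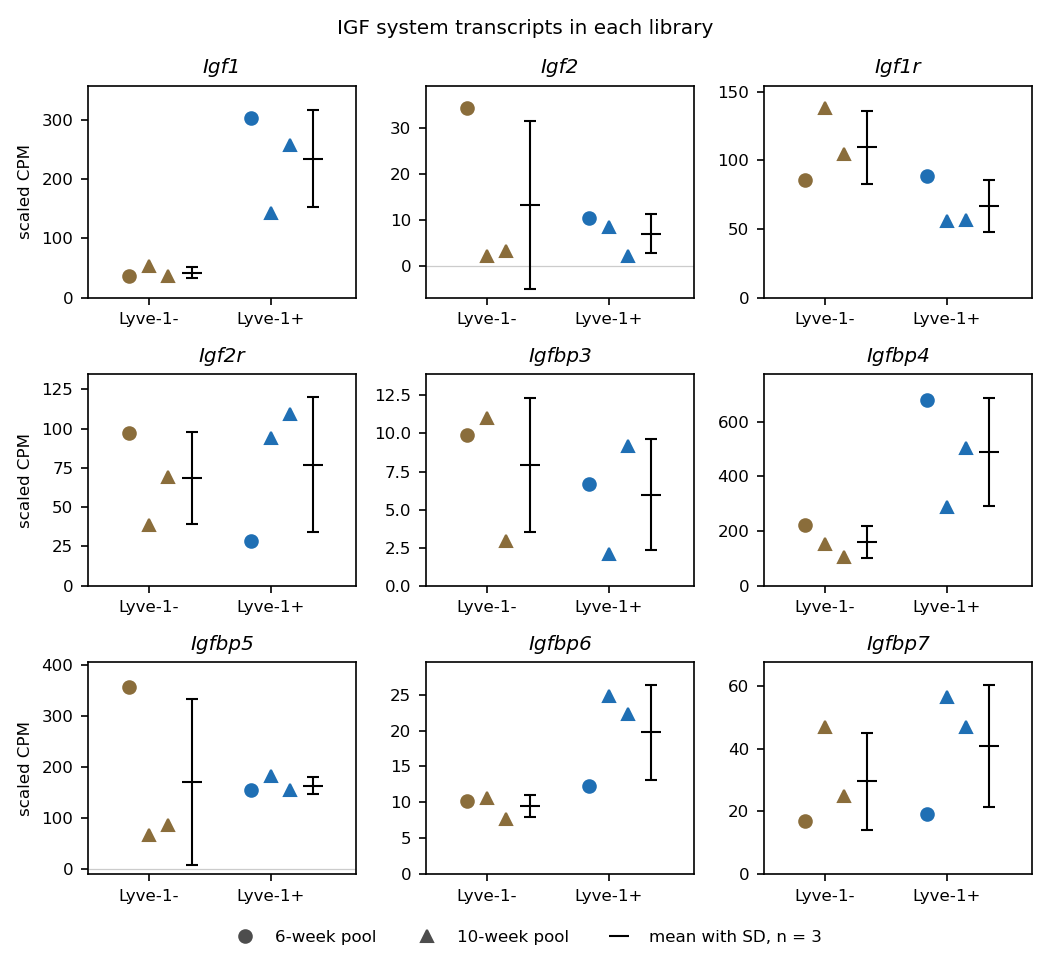
Level of each of the 9 genes (y axis, TMM-scaled CPM, linear and different in each panel) in the 3 Lyve-1- (brown) and 3 Lyve-1+ (blue) libraries, with circles for pools of 6-week-old mice, triangles for pools of 10-week-old mice and a black bar for the mean with its SD (n = 3). The blue points of *Igf1*, *Igfbp4* and *Igfbp6* all lie above the brown points, and 1 brown circle stands far above the other Lyve-1- libraries for *Igf2* and *Igfbp5*.

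The promoters of the ligand that passed the test and of the binding protein with the next largest fold change are shown because these genes were higher in the same libraries. They are the 250 bases before the RefSeq start of each gene on GRCm38.p6 (the mm10 assembly), printed 5′ to 3′ on the gene's strand with every CG dinucleotide in capitals. The *Igf1* stretch is chr10:87860861-87861110 and the *Igfbp4* stretch is chr11:99040994-99041243, both on the plus strand. The *Igf1* stretch lies inside the GENCODE M21 span of the gene, which begins at 87858265. It therefore stands before an internal start, and the bases before the first GENCODE start of *Igf1* were not examined. The *Igfbp4* stretch ends right before the GENCODE start of that gene.
Igf1: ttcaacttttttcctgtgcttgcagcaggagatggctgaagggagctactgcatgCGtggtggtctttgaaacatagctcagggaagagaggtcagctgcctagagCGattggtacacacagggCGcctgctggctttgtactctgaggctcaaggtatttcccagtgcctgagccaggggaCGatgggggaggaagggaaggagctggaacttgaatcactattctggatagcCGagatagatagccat
Igfbp4: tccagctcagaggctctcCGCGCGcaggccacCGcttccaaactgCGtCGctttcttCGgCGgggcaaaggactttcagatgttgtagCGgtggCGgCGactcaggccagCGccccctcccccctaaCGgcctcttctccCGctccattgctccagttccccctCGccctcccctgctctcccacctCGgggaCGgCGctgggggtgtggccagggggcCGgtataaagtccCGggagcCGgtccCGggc

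These stretches were of different make. The *Igf1* stretch held 5 CG dinucleotides and 52.8% G and C, near the medians of 6 and 52.4% over 32851 RefSeq promoter stretches of the same length. The *Igfbp4* stretch held 22 CG dinucleotides, a number reached by 14.8% of all stretches, and 69.2% G and C. A TATAAA stood 28 bases before the start of *Igfbp4* on its own strand, and none was found in the *Igf1* stretch, where 12.4% of all stretches held TATAAA on either strand. The motifs of STAT5 (TTCNNNGAA), MAF (half-site TGCTGAC), PU.1 (GAGGAAGT) and C/EBP (TTGCNNAA) were searched on both strands and were in neither stretch. They were found in 7.02%, 3.81%, 2.44% and 9.56% of all stretches. Of the other genes, a MAF half-site was present 192 bases before the start of *Igfbp7* and 71 bases before 1 of the 4 starts of *Igf2*. A match is a run of letters and not a site shown to be bound.

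The ligands were examined first. *Igf1* (chromosome 10 of mm10, 87858265 to 87937042, plus strand) had 445, 599 and 247 raw counts in Lyve-1- replicates 1, 2 and 3 and 3977, 2998 and 2050 in Lyve-1+ replicates 1, 2 and 3. After scaling these were 37.4, 53.2 and 36.0 CPM in Lyve-1- cells and 303, 144 and 258 CPM in Lyve-1+ cells. The lowest Lyve-1+ library, replicate 2, stood well above the highest Lyve-1- library, which was also replicate 2. The log2 fold change was 2.48 (standard error, SE, 0.35, 95% interval 1.73 to 3.22, adjusted p = 0.0053 in edgeR). It lay between 2.26 and 2.71 with any 1 library left out, and the adjusted p was then between 3.92e-05 and 0.0468. The highest of these p-values came without Lyve-1- replicate 3, where *Igf1* was no longer called. With the pools of 10-week-old mice only, it was 2.15 (adjusted p = 0.0708 in edgeR), and without both Lyve-1- replicate 3 and Lyve-1+ replicate 1 it was 2.13 (adjusted p = 0.197 in edgeR). In that last fit 0 of all 12360 genes tested were called by edgeR, with 639 at an unadjusted p under 0.05, and without Lyve-1- replicate 3 alone 1 of 13654 genes was called. In these bulk libraries, more *Igf1* transcript per cell and more cells that transcribe it cannot be told apart.

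Markers of fibroblasts, which also transcribe *Igf1* and several binding proteins, were higher in the same direction. Of 10 fibroblast markers, 9 were higher in Lyve-1+ cells, against 49.4% of all genes tested, and 0 were called, against 0.112%. The median log2 fold change was 1.74, against -0.01 over all genes tested. *Col1a2* had the lowest adjusted p (0.0541 in edgeR, log2 fold change 2.18), and *Pi16*, the remaining marker, had a log2 fold change of -0.08. The summed level of the 10 markers ran from 1117 to 1289 CPM in Lyve-1- libraries and from 1917 to 7626 CPM in Lyve-1+ libraries. None of the markers was at 0. Lyve-1+ replicate 3 had the highest sum, 7626 CPM, while *Igf1* and *Igfbp4* were both highest in Lyve-1+ replicate 1, where the sum was 2578 CPM. Without Lyve-1+ replicate 3, the log2 fold change of *Igf1* was 2.37 (adjusted p = 0.00239 in edgeR). The part of fibroblast RNA in these differences was not tested. *Alb* and the other hepatocyte genes listed were also counted, and liver is a major source of IGF1 in the body. Their summed level was 608, 631 and 37.6 CPM in Lyve-1- replicates 1, 2 and 3 and 71.8, 2.78 and 1193 CPM in Lyve-1+ replicates 1, 2 and 3. The fractions overlapped in this sum, which was highest in Lyve-1+ replicate 3 and lowest in Lyve-1+ replicate 2. The part of such RNA in the *Igf1* values was not tested.

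*Igf2* (chromosome 7, 142650766 to 142666816, minus strand) was low and uneven. Raw counts were 407, 25 and 23 in the Lyve-1- libraries and 136, 177 and 18 in the Lyve-1+ libraries, or 34.2, 2.22 and 3.35 CPM against 10.4, 8.48 and 2.27 CPM. Lyve-1- replicate 1 was far above every other library, and the fractions overlapped. The log2 fold change was -0.91 with a 95% interval from -3.50 to 1.68 (adjusted p = 1 in edgeR), and it was 1.32 without Lyve-1- replicate 1. Exons of *Igf2* share 98 bases with the antisense gene *Igf2os* and 3596 bases with *Gm49394* on the same strand in GENCODE M21, the latter not analysed here. *Igf2os* had 93 counts in the third Lyve-1- replicate and 14 in the first Lyve-1+ replicate and was at 0 in the other libraries. The library kit keeps strand, but the strand setting of the counting is not given in the sources used here, so reads of overlapping genes may be shared.

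The receptors did not pass the test. *Igf1r* (chromosome 7, 67952827 to 68233668, plus strand) was at 85.9, 138 and 105 CPM in Lyve-1- replicates 1, 2 and 3 and at 88.8, 56.0 and 56.3 CPM in Lyve-1+ replicates 1, 2 and 3. The fractions overlapped through the libraries numbered 1 only, since the Lyve-1+ library of that pair was just above its Lyve-1- counterpart. The log2 fold change was -0.71 (SE 0.34, 95% interval -1.44 to 0.02, adjusted p = 0.664 in edgeR). *Igf2r* (chromosome 17, 12682406 to 12769664, minus strand) was at 97.5, 38.6 and 69.2 CPM in Lyve-1- replicates and at 28.3, 94.0 and 109 CPM in Lyve-1+ replicates. The order of the fractions was turned in the libraries numbered 1, and over all libraries the log2 fold change was 0.17 (95% interval -0.86 to 1.21, adjusted p = 1 in edgeR). *Airn*, a noncoding RNA transcribed against *Igf2r*, shares no exon bases with it and had at most 40 counts in any library.

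Among the binding proteins, *Igfbp4* (chromosome 11, 99041244 to 99054392, plus strand) came nearest to the threshold. It had 2656, 1741 and 729 raw counts in the Lyve-1- libraries and 8936, 5991 and 3996 in the Lyve-1+ libraries, which were 223, 155 and 106 CPM against 681, 287 and 503 CPM. The lowest value in Lyve-1+ cells, 287 CPM, exceeded the highest in Lyve-1- cells, 223 CPM. The difference was 1.60 on the log2 scale (SE 0.35, 95% interval 0.86 to 2.35, adjusted p = 0.056 in edgeR). It was called by DESeq2 (log2 fold change 1.57, adjusted p = 0.00333), as were 0.952% of all genes that tool tested, and by edgeR when Lyve-1- replicate 1 (1.89, adjusted p = 0.00701) or Lyve-1+ replicate 2 (1.85, adjusted p = 0.00212) was left out. Without both Lyve-1- replicate 3 and Lyve-1+ replicate 1, it was 1.05 (adjusted p = 0.863 in edgeR).

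*Igfbp6* (chromosome 15, 102144362 to 102149511, plus strand) had between 53 and 517 counts per library. It was at 10.3, 10.6 and 7.73 CPM in Lyve-1- replicates 1, 2 and 3 and at 12.3, 24.8 and 22.3 CPM in Lyve-1+ replicates. The fractions did not overlap, but the Lyve-1+ library numbered 1 was close to the Lyve-1- libraries. The log2 fold change was 1.05 with a wide 95% interval of -0.56 to 2.66 (adjusted p = 0.968 in edgeR).

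*Igfbp5* and *Igfbp7* encode binding proteins made by many stromal, endothelial and epithelial cells, and the *Igfbp7* product binds IGFs only weakly. *Igfbp5* (chromosome 1, 72857932 to 72874884, minus strand) was at 357, 67.4 and 85.4 CPM in Lyve-1- replicates 1, 2 and 3 and at 154, 183 and 154 CPM in Lyve-1+ replicates. Lyve-1- replicate 1 was the highest library of all and the other Lyve-1- libraries were the lowest. The log2 fold change was -0.06 (95% interval -1.25 to 1.13, adjusted p = 1 in edgeR), and it was 1.09 without Lyve-1- replicate 1 (adjusted p = 0.28 in edgeR). *Igfbp7* (chromosome 5, 77349240 to 77408041, minus strand) was at 17.0, 46.9 and 25.1 CPM in Lyve-1- replicates and at 19, 56.4 and 47.1 CPM in Lyve-1+ replicates. Both libraries numbered 1 were low, and the log2 fold change was 0.46 (95% interval -0.71 to 1.64, adjusted p = 1 in edgeR). The end of *Igfbp7* shares 85 exon bases with *Polr2b* on the other strand.

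*Igfbp3*, which encodes the main carrier of IGFs in blood, was among the lowest of the 9 genes. *Igfbp3* (chromosome 11, 7206086 to 7213923, minus strand) had between 20 and 124 counts per library. It was at 9.91, 11.0 and 2.92 CPM in Lyve-1- replicates and at 6.70, 2.06 and 9.20 CPM in Lyve-1+ replicates. The fractions overlapped over most of their range, and the log2 fold change was -0.41 (95% interval -3.32 to 2.50, adjusted p = 1 in edgeR).

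**Figure D2:**
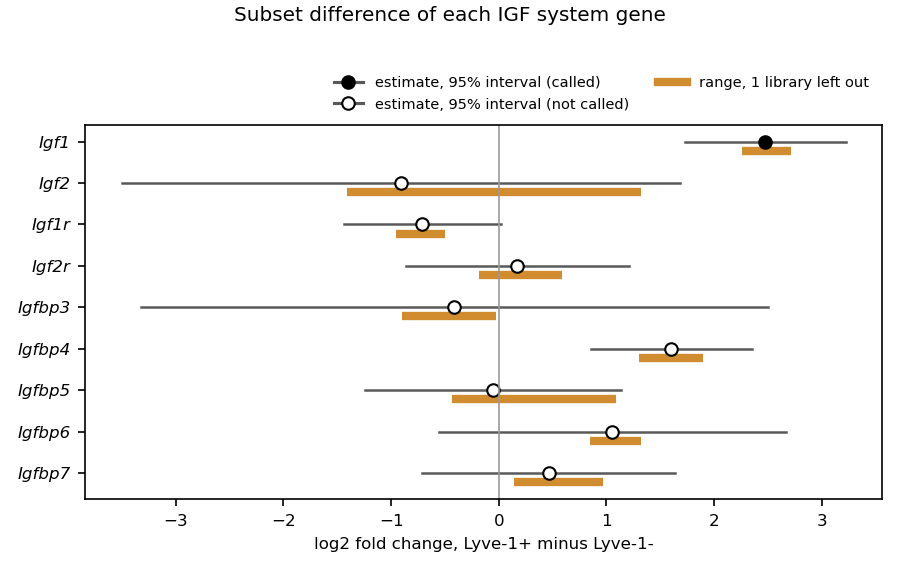
Log2 fold change of each gene between Lyve-1+ and Lyve-1- libraries (x axis, positive values are higher in Lyve-1+ cells) from edgeR over all 6 libraries, with its 95% interval (grey line) and the range of the estimate when 1 library was left out (orange bar). The filled point of *Igf1* at 2.48 is the called gene, and the orange bars of *Igf2*, *Igf2r* and *Igfbp5* cross 0.

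In Lyve-1- replicate 1, the library with the high *Igf2* and *Igfbp5* values, summed markers of several kinds of cells outside the sort gate were also high. The 8 mammary epithelium markers summed to 411 CPM there and to 55.2 and 193 CPM in the other Lyve-1- libraries. The pericyte and smooth muscle markers summed to 305 CPM there against 142 to 146 CPM, and the endothelial markers to 301 CPM against 104 to 194 CPM. In the Lyve-1+ libraries these sums ran from 56.9 to 103 CPM for epithelium, 166 to 223 CPM for pericytes and smooth muscle and 102 to 369 CPM for endothelium. The largest parts of the epithelial sum in Lyve-1- replicate 1 were *Csn2* (182 CPM) and *Krt18* (140 CPM). *Epcam* (25.0 against 29.6 CPM), *Krt14* (1.18 against 11.7 CPM) and *Krt5* (2.18 against 9.04 CPM) were lower there than in Lyve-1- replicate 3. *Wap* and *Elf5* of the epithelial list and *Cspg4* of the pericyte list were at 0 in Lyve-1- replicate 1. The part of such cells in the *Igf2* and *Igfbp5* values was not tested. Over all 10 lists for other cell types, 0 of 53 markers tested were called by edgeR, against 0.112% of all genes tested. An unadjusted p under 0.05 was found for 12 of the 53, fibroblast markers among them, against 7.69% of all genes tested. The medians of the remaining lists lay between -1.30 for mammary epithelium and 2.76 for neutrophils. The lymphatic endothelium list, which could hold *Lyve1*-positive cells, had a median of 0.28 and sums of 14.6 to 37.5 CPM in Lyve-1- and 13.3 to 40.4 CPM in Lyve-1+ libraries, with *Ccl21a* at 0 in every library.

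Levels of different genes were compared per kb of exon, as scaled CPM divided by the exon length in GENCODE M21. *Igfbp4* had the highest mean level in both fractions, at 36.5 ± 13.3 CPM per kb (SD, n = 3) in Lyve-1- and 111 ± 44.7 (SD, n = 3) in Lyve-1+ cells. In Lyve-1+ cells it was followed by *Igfbp7* (33.8 ± 16.1), *Igfbp5* (27.2 ± 2.77), *Igf1* (23.7 ± 8.30) and *Igfbp6* (17.8 ± 5.95). The gap from *Igfbp4* to *Igfbp7* exceeded the larger SD of that pair, while no neighbours from *Igfbp7* to *Igfbp6* differed by more than their spread. Below them were *Igf2r* (8.28 ± 4.61) and *Igf1r* (3.99 ± 1.12), whose gap was within the spread, and then *Igfbp3* (1.91 ± 1.16) and *Igf2* (1.23 ± 0.74). In Lyve-1- cells *Igf1* stood lower in the order, at 4.26 ± 0.965 CPM per kb, below *Igf2r* (7.35 ± 3.16) and *Igf1r* (6.53 ± 1.58), and its gap to *Igf1r* exceeded the larger SD. The Lyve-1- levels of *Igfbp5* (28.3 ± 27.0) and *Igfbp7* (24.5 ± 12.8) were within the spread of *Igfbp4*, and *Igfbp6* was at 8.56 ± 1.40. *Igfbp3* (2.54 ± 1.40) and *Igf2* (2.32 ± 3.17) were the lowest there too and within their spread of each other.

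**Figure D3:**
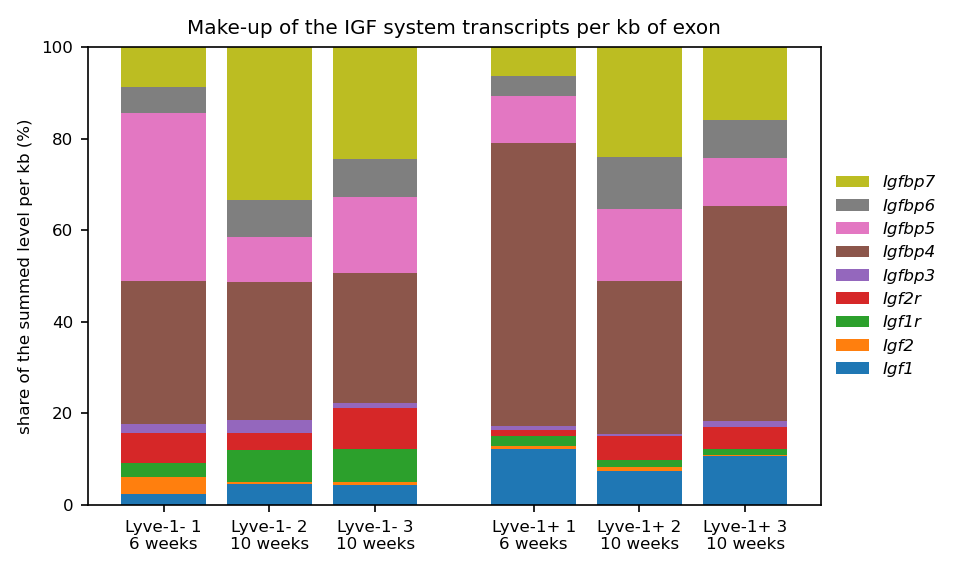
Share of each of the 9 genes in their summed level per kb of exon (y axis, %) in each library (x axis, with replicate number and age). *Igfbp4* (dark brown) takes between 28.4% and 31.3% in the Lyve-1- libraries and between 33.4% and 61.8% in the Lyve-1+ libraries, and *Igf1* (blue, bottom) takes at most 4.62% in the former and at least 7.46% in the latter.

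As a share of the summed level per kb of the 9 genes, *Igf1* was 3.75% ± 1.24 (SD, n = 3) in Lyve-1- and 10.2% ± 2.45 (SD, n = 3) in Lyve-1+ cells. *Igfbp4* was 29.9% ± 1.45 and 47.4% ± 14.2, and *Igf1r* was 5.87% ± 2.35 and 1.74% ± 0.371. A share falls when another gene of the sum rises, so these values describe the mixture and not each gene alone.

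Ratios per kb within a library were chosen after the values of the genes had been seen and are given as a description. An exact permutation test of each ratio gave p = 0.1 at the lowest, the smallest value that test can give with these libraries. It therefore cannot decide whether a ratio differed. The ratio of *Igf1* to *Igf1r* was 0.738, 0.652 and 0.583 in Lyve-1- replicates 1, 2 and 3, so the receptor transcript exceeded the ligand transcript in each. It was 5.79, 4.35 and 7.78 in Lyve-1+ replicates, where the ligand transcript exceeded the receptor transcript. The mean log2 ratio differed by 3.15 between the fractions. The ratio of *Igf1* to *Igfbp4* differed by 0.85 on the log2 scale and that of *Igf1r* to the insulin receptor gene *Insr* by -0.72, each without overlap between the fractions. The ratio of *Igf1r* to *Igf2r* ran from 0.488 to 1.98 in Lyve-1- and from 0.286 to 1.74 in Lyve-1+ libraries, which overlapped. The ratios of *Igf1* to *Igf2* and of *Igfbp4* to *Igfbp5* overlapped as well.

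The ages were then compared, as 10 weeks against 6 weeks with the fraction as a second term. None of the 9 genes was called by edgeR, as was the case for all 13348 genes, and 3 of the 9 had an unadjusted p under 0.05 against 3.33% of all genes tested. These were *Igfbp4* and *Igfbp5*, lower at 10 weeks with log2 differences of -0.78 and -1.21, and *Igfbp7*, higher at 10 weeks with a log2 difference of 1.26 (unadjusted p = 0.0169, 0.021 and 0.038, adjusted p = 1 for each in edgeR). With 1 pool of each fraction at 6 weeks, these values rest on those pools.

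The difference between the fractions was also set out for the libraries with the same replicate number. The numbers give the age, but the labels do not say whether same-numbered libraries came from the same mice. At 10 weeks each Lyve-1+ library was therefore also compared with either Lyve-1- library. In all 3 same-numbered pairs, *Igf1* had the higher value in Lyve-1+ cells, by 3.02, 1.43 and 2.84 on the log2 scale for pairs 1, 2 and 3. *Igfbp4* was higher by 1.61, 0.89 and 2.24, *Igfbp6* by 0.26, 1.23 and 1.53, and *Igfbp7* by 0.17, 0.27 and 0.91. *Igf2r* differed by -1.79 in pair 1 and by 1.28 and 0.65 in pairs 2 and 3, and *Igfbp5* by -1.22, 1.44 and 0.85, so that both were lower in Lyve-1+ cells at 6 weeks and higher at 10 weeks. *Igf1r* was nearly level in pair 1 (0.05) and lower by -1.31 and -0.89 in the pairs at 10 weeks. Whichever 10-week libraries are set against each other, Lyve-1+ was higher for *Igf1*, *Igf2r*, *Igfbp4*, *Igfbp5*, *Igfbp6* and *Igfbp7* and lower for *Igf1r*. The 10-week libraries overlapped for *Igf2* and *Igfbp3*. How many of all genes tested were apart in this way was not counted, so nothing particular to these genes is read from it. The fractions were apart at 10 weeks and had the opposite sign at 6 weeks for 3 of the 9 genes (*Igf1r*, *Igf2r* and *Igfbp5*), against 13.3% of all genes tested. A change of the fraction difference with age was tested as an interaction and was called for none of the 9 genes by edgeR. The unadjusted p was under 0.05 for 2 of them, *Igf2r* and *Igfbp5*, against 4.59% of all genes tested.

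**Figure D4:**
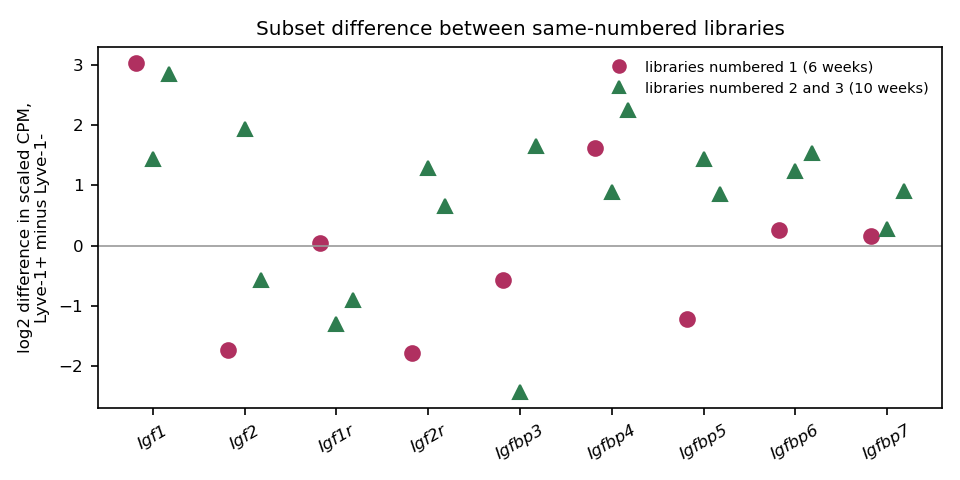
Log2 difference in scaled CPM between the Lyve-1+ and the Lyve-1- library with the same replicate number (y axis) for each gene (x axis), with a circle for the pair of 6-week pools and triangles for both pairs of 10-week pools. All 3 symbols of *Igf1*, *Igfbp4*, *Igfbp6* and *Igfbp7* lie above 0, while the circles of *Igf2r* (-1.79) and *Igfbp5* (-1.22) lie below 0 and their triangles above it.

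The other genes of the IGF axis were taken from a list of 52 symbols, of which 42 passed the filter. By edgeR 0 of them were called and 0 had an adjusted p under 0.05, against 0.629% of all genes tested at the latter limit. An unadjusted p under 0.05 was found for 5 (11.9%), against 7.69% of all genes tested. Estimates were above 0 for 23 of the 42 and below 0 for 19, and their median was 0.02 on the log2 scale. The libraries of the fractions did not overlap for 4 genes higher and 6 lower in Lyve-1+ cells, where 7.82% and 6.5% of all genes tested did so. The 5 genes were the IGFBP protease gene *Htra1*, the growth hormone pathway genes *Jak2*, *Socs2* and *Cish*, and the PI3-kinase subunit gene *Pik3r1*.

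Of the receptors and carriers outside the 9 genes, 2 of 8 could be tested. *Insr*, the insulin receptor gene, had between 560 and 2315 counts per library and a log2 fold change of 0.05 (SE 0.32, adjusted p = 1 in edgeR). *Igfbp2* had a log2 fold change of 1.14 (SE 2.17, adjusted p = 1 in edgeR), with 121, 0 and 0 counts in the Lyve-1- and 10, 36 and 159 in the Lyve-1+ libraries. *Igfbp1* had counts only in Lyve-1- replicate 3, where there were 32, and *Igfals*, the gene of the acid-labile subunit of the circulating IGF complex, had at most 86. *Ins1* was at 0 in every library, and *Ins2* had at most 13 counts. Where no read was counted, up to 3 counts remain possible from counting error alone, which is 0.144 to 0.437 CPM across the libraries.

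Proteases that cut the binding proteins, with the stanniocalcins that inhibit the pappalysin proteases, gave 6 of 8 testable genes, 3 higher and 3 lower. *Htra1*, a secreted serine protease gene, was at the top with 212, 129 and 55 counts in the Lyve-1- and 241, 599 and 755 in the Lyve-1+ libraries. Its log2 fold change was 1.93 (SE 0.66, adjusted p = 0.337 in edgeR), and the libraries of the fractions did not overlap. *Stc2* was at the bottom with a log2 fold change of -3.41 (SE 2.28, adjusted p = 0.935 in edgeR), from 233, 37 and 24 counts in the Lyve-1- libraries and 32, 0 and 0 in the Lyve-1+ libraries. *Pappa*, whose product cuts IGFBP4, had at most 60 counts in any library and did not pass the filter.

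The growth hormone pathway genes, which control *Igf1* in liver and other tissues, were all tested. *Ghr*, the growth hormone receptor gene, was near its detection limit with 2 to 40 counts per library and had the highest log2 fold change of the group, 1.12 (SE 2.27, adjusted p = 1 in edgeR). *Socs2*, a feedback inhibitor of that receptor and a STAT5 target, was at the bottom, with 146, 486 and 191 counts in the Lyve-1- libraries and 20, 135 and 1 in the Lyve-1+ libraries. Its log2 fold change was -3.33 (SE 1.09, adjusted p = 0.308 in edgeR). *Jak2*, the kinase bound to the receptor, had a log2 fold change of -1.41 (SE 0.37, adjusted p = 0.145 in edgeR), and *Cish*, a related inhibitor gene, one of -1.38 (SE 0.59, adjusted p = 0.551 in edgeR). The libraries of the fractions did not overlap for *Socs2* and *Jak2* and overlapped for *Cish*. *Stat5a* and *Stat5b*, the transcription factors of the pathway, differed by 0.01 and 0.38 on the log2 scale (adjusted p = 1 for each in edgeR).

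The group of receptor signalling genes had 26 of 27 tested, of which 14 had estimates above 0 and 12 below, and the median was 0.02 on the log2 scale. *Grb10*, which encodes an adaptor that restrains insulin and IGF receptors, was highest with a log2 fold change of 1.09 (SE 0.98, adjusted p = 1 in edgeR). *Irs3*, with at most 46 counts in any library, was lowest with -1.64 (SE 2.82, adjusted p = 1 in edgeR). All Lyve-1- counts of *Irs3* were in replicate 3, the library with the highest olfactory receptor level. *Pik3r1* had a log2 fold change of -0.66 (SE 0.28, adjusted p = 0.537 in edgeR) and did not overlap between the fractions. *Irs2*, which encodes a docking protein of the insulin and IGF receptors, had between 863 and 2533 counts and a log2 fold change of 0.06 (SE 0.30, adjusted p = 1 in edgeR). Of the RNAs of the imprinted *Igf2* and *Igf2r* loci, *H19* had a log2 fold change of 0.77 (SE 0.89, adjusted p = 1 in edgeR) and *Airn* one of -2.05 (SE 2.70, adjusted p = 1 in edgeR).

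**Figure D5:**
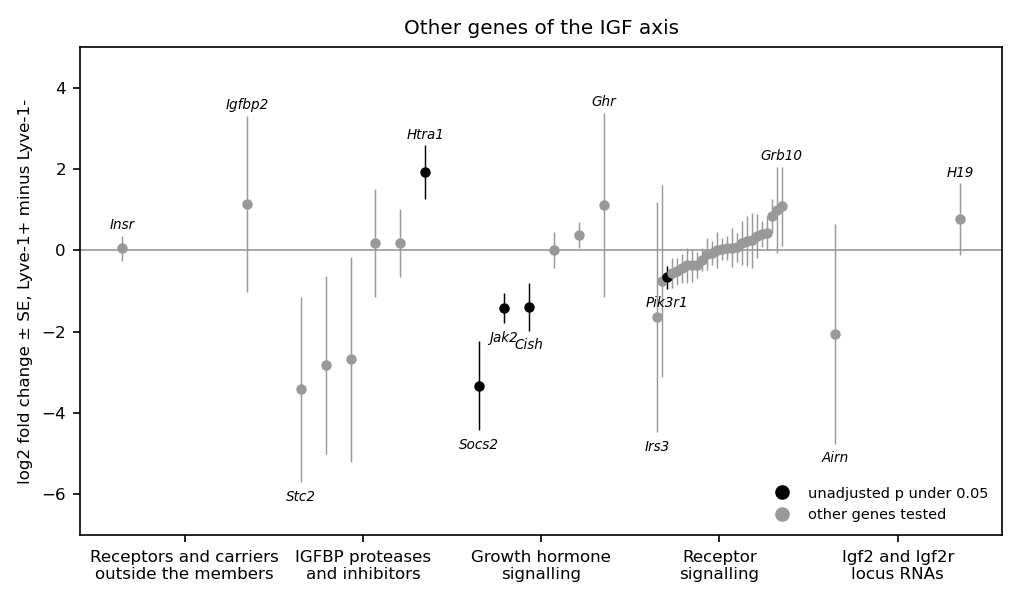
Log2 fold change between Lyve-1+ and Lyve-1- libraries with its SE (y axis) of the 42 tested genes of the IGF axis outside the 9 genes, ordered within each group (x axis), with black points for an unadjusted p under 0.05. *Htra1* at 1.93 is the only black point above 0, while *Socs2* (-3.33), *Jak2* (-1.41), *Cish* (-1.38) and *Pik3r1* (-0.66) lie below it.

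Finally, the genes whose profile over the 6 libraries was most like that of *Igf1* or *Igfbp4* were found by the root-mean-square difference between centred log2 CPM profiles, among 13347 other genes. For *Igf1* they were *Plekhg5* (0.22), *Uaca* (0.27), *Gja1* (0.27), *Dennd2a* (0.30) and *Egfr* (0.34). *Plekhg5*, a guanine nucleotide exchange factor gene, was at 37.6, 38.5 and 26.5 CPM in the Lyve-1- and 319, 141 and 213 CPM in the Lyve-1+ libraries, close to the *Igf1* values library by library. *Gja1* encodes the gap junction protein connexin 43, and *Egfr* the epidermal growth factor receptor, which was at 16.4, 35.9 and 31.9 CPM in Lyve-1- and 155, 67.5 and 142 CPM in Lyve-1+ libraries. For *Igfbp4* the nearest genes were *Sema6a* (0.13), *Pmp22* (0.22), *Snx2* (0.24), *Hpse* (0.25) and *F13a1* (0.26). *F13a1*, the gene of the coagulation factor XIII A chain found in tissue macrophages, was at 1303, 1144 and 744 CPM in the Lyve-1- and 6248, 2859 and 3404 CPM in the Lyve-1+ libraries. *Hpse* encodes heparanase, which cuts heparan sulfate. *Igfbp4* itself stood at place 54 in likeness to *Igf1* (0.55), ahead of the other members of the IGF system, of which *Igfbp6* came next at place 668 (0.95).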

How the data were processed

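Cells were sorted by flow cytometry and sequenced with a stranded total RNA kit. The authors mapped paired 50-bp reads to mm10 with HISAT2 2.0.2 and counted them per gene with featureCounts 1.5.0 (per the labels and the methods). The deposited values are raw counts per gene symbol, without normalization. The strand setting and annotation are not given in the sources used here. The methods name DESeq2 and a removal of genes under 300 bp.

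From the counts, edgeR 4.0.16 (R 4.3.3, limma 3.58.1) was run with filterByExpr, TMM scaling and robust quasi-likelihood F tests, two-sided, with Benjamini-Hochberg adjustment over all genes tested and the fraction as the only term. A standard error is the log2 fold change divided by the square root of F. Alternatives were DESeq2 1.42.0, other scalings and filters, age or replicate number as a term, background subtraction and left-out libraries. Positions and exon lengths came from GENCODE M21 (22749 symbols matched directly, 955 through a synonym, 357 not). The fits were tested on simulated data. Replicates are numbered in the labels and are separate pools by the methods. The p-values rest on the spread between these pools, with the spread of each gene drawn towards that of all genes.

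The genes and lists were chosen with earlier results of these data known. The text names all 9 genes, and in each group of the IGF axis list the highest and lowest log2 fold change and any gene called. For likeness it names the 5 nearest genes of *Igf1* and *Igfbp4*. Genes with an unadjusted p under 0.05, *Insr*, *Igfbp1*, *Igfals*, *Ins1*, *Ins2*, *Pappa*, *Stat5a*, *Stat5b*, *Irs2*, the ratios and the TATAAA motif were chosen after their values were seen.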

Additional observations from a re-analysis of the deposited data

Results flagged for a closer look

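For 3 of the 9 genes the fractions did not overlap at 10 weeks and differed with the opposite sign between the 6-week libraries, a pattern that 13.3% of all genes tested also had. *Igf2r* was lower in Lyve-1+ cells at 6 weeks and higher at 10 weeks, with an interaction of 2.70 on the log2 scale (unadjusted p = 0.00466, edgeR adjusted p = 0.669). *Igfbp5* turned in the same way, with an interaction of 2.35 (unadjusted p = 0.00204, edgeR adjusted p = 0.592). *Igf1r* was higher by 0.05 on the log2 scale in Lyve-1+ cells at 6 weeks and lower at 10 weeks, with an interaction of -1.16 (unadjusted p = 0.128, edgeR adjusted p = 0.976). None passed the adjusted test, and each fraction had 1 library at 6 weeks.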

How the results depend on the processing

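The log2 fold change of *Igf1* lay between 2.13 and 2.71 over 17 alternatives, and it was called in 14 of them. The exceptions were the 10-week libraries alone, the fit without Lyve-1- replicate 3 and the fit, chosen after the data were seen, without both Lyve-1- replicate 3 and Lyve-1+ replicate 1. *Igfbp4* was called in 6 of 17, always in the same direction. The number of the 9 genes called was 2 with DESeq2, without a filter on low counts, with the replicate number as a block and with age as a covariate, and 0 in the 10-week libraries alone and without the libraries with the highest olfactory receptor level. It ranged from 0 to 2 with 1 library left out. In the list of other IGF axis genes, *Jak2* was called without a filter on low counts (1 gene), and 0 were called in the other alternatives. The median of that list ranged from -0.40 (without Lyve-1+ replicate 3) to -0.0075 (without Lyve-1- replicate 3) with 1 library left out. Over all genes, the number called was 15 as reported, 151 with DESeq2, 188 without a filter, 32 with at least 10 counts in every library, 140 with the block, 58 with age, 11 with background subtracted, 18 at 10 weeks, 0 without both libraries with the highest olfactory receptor level (639 at an unadjusted p under 0.05 in edgeR), and 1 (without Lyve-1- replicate 3) to 81 with 1 library left out.

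Signs turned as follows, without a call. *Igf2* was 0.10 with age as a covariate and 0.95 in the 10-week libraries alone. *Igfbp5* was 0.39 with age as a covariate, 0.39 with the replicate block and 1.14 in the 10-week libraries alone. With 1 library left out, *Igf2* ranged from -1.41 to 1.32, *Igf2r* from -0.18 to 0.59 and *Igfbp5* from -0.44 to 1.09. The cause was not tested. Deviations of same-numbered libraries correlated between -0.147 and -0.00183 over genes, and 0 of 6 libraries correlated best with their own number. The libraries numbered 1 share their age and still correlated at -0.0462. This check therefore cannot tell whether same-numbered libraries came from the same mice, and the labels do not say so. With the replicate block, *Igfbp4* had an adjusted p of 0.00048 and the call of *Igf1* was the same. The other scalings moved the median of all genes by less than 0.1 on the log2 scale. Low counts limit *Igf2*, *Igfbp3* and *Igfbp6*.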
